A study of Mus musculus with 55 samples.

Results

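The difference between the knockout effect at 25 weeks and the knockout effect at 8 weeks was measured in whole islets of male C57B6/J mice, as the log2 fold change of βEedKO over wild type at 25 weeks minus the same fold change at 8 weeks. A positive value means that βEedKO stood higher relative to wild type at 25 weeks than at 8 weeks, and a negative value that it stood lower. All 11 wild-type and βEedKO bulk RNA-seq libraries entered, of 55 samples in the series, with 3 wild-type (wild type) and 3 βEedKO (Eed -/-) libraries at 8 weeks and 3 wild-type and 2 βEedKO libraries at 25 weeks. In βEedKO mice the floxed Eed gene was deleted by a Cre transgene driven from the rat insulin promoter, so β cells lost the gene and the other islet cells kept it. By the study's account the βEedKO mice were diabetic by 25 weeks, islets were picked by hand after collagenase digestion and cultured in glucose, and a library held the islets of 1 or 2 animals, except at 25 weeks, where the βEedKO libraries pooled more. Another 5 libraries of heterozygous mice, 3 at 8 weeks and 2 at 25 weeks, were used as an alternative control.

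Eed is the subunit of Polycomb repressive complex 2 that binds trimethylated lysine 27 of histone H3 and that the complex needs to write this mark. The mark keeps genes of other lineages and of early development silent in differentiated cells. Mature β cells, which divide rarely, are known for a narrow set of genes that serve insulin synthesis and its release by glucose. A comparison of the knockout effect between ages asks which genes were affected late, which were affected early, and which had the same effect at both.

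Library totals ranged from 4645393 to 19078305 reads in genes. Both 25-week βEedKO libraries stood apart from the other 9. The TMM factors, which scale for composition, were 0.772 and 1.56 in them, and the hormone genes Ins1, Ins2 and Gcg made up 1.80% and 3.91% of their reads in sum, against 10.1% to 21.3% in the other libraries. Eed itself had 23.2, 33.8 and 32.0 CPM (read counts scaled to a common library size by TMM) in wild type and 14.7, 13.6 and 15.1 CPM in βEedKO at 8 weeks. The 25-week values were 28.6, 22.3 and 19.4 CPM in wild type and 15.4 and 13.7 CPM in βEedKO. The genotype groups did not overlap at either age, and the difference of the effects was 0.35 ± 0.32 (log2, SE) with an adjusted p of 0.906. Islet hormone genes were abundant, as the labelled tissue requires, with Ins2 at 82724 CPM or more in each of the 9 libraries other than 25-week βEedKO and at 9447 and 11295 CPM in these. In whole islets, fewer cells of a type and less RNA per cell cannot be told apart.

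Of 18685 genes tested, 37 (0.198%) had a difference of effects with an adjusted p under 0.05. In 17 of them (0.091% of all tested) the difference was positive and in 20 (0.107%) it was negative. The same fit called 81 genes for the knockout effect at 8 weeks (0.434%) and 1234 at 25 weeks (6.6%), so that 36 of the 1234 genes called at 25 weeks (2.92%) were also shown to differ from their effect at 8 weeks. For the other 1198 genes called at 25 weeks, the test did not show a difference from the effect at 8 weeks. In 35 of the 37 genes the effect was larger in absolute size at 25 weeks, and in Barhl1 and Prss3 at 8 weeks. The effects had opposite signs at the ages in 11 of the 37, 7 with a positive and 4 with a negative difference. In Prss53, C4bp, Rnf182, Eef1a2, Thsd7a and Ogdhl the 8-week effect was only -0.408 to 0.215 (adjusted p 0.900 to 0.993). The sign of these genes at 8 weeks is thus uncertain. The change lay mostly in βEedKO: 36 of the 37 were called between the βEedKO groups of the 2 ages, where 281 genes were called in all (1.5%), whereas edgeR called 0 genes between the wild-type groups (0%), with 1898 (10.2%) at an unadjusted p under 0.05. Both 25-week βEedKO libraries lay above all other 9 libraries in 16 of the 17 positive genes and below them in 19 of the 20 negative genes. Over all genes tested these shares were 9.57% and 6.68%. The median absolute change with age in the 37 genes was 0.50 in wild type and 2.81 in βEedKO (log2). The 37 genes were chosen by a contrast of these same libraries. The counts and medians thus describe the genes chosen and are no separate support.

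**Figure D1:**
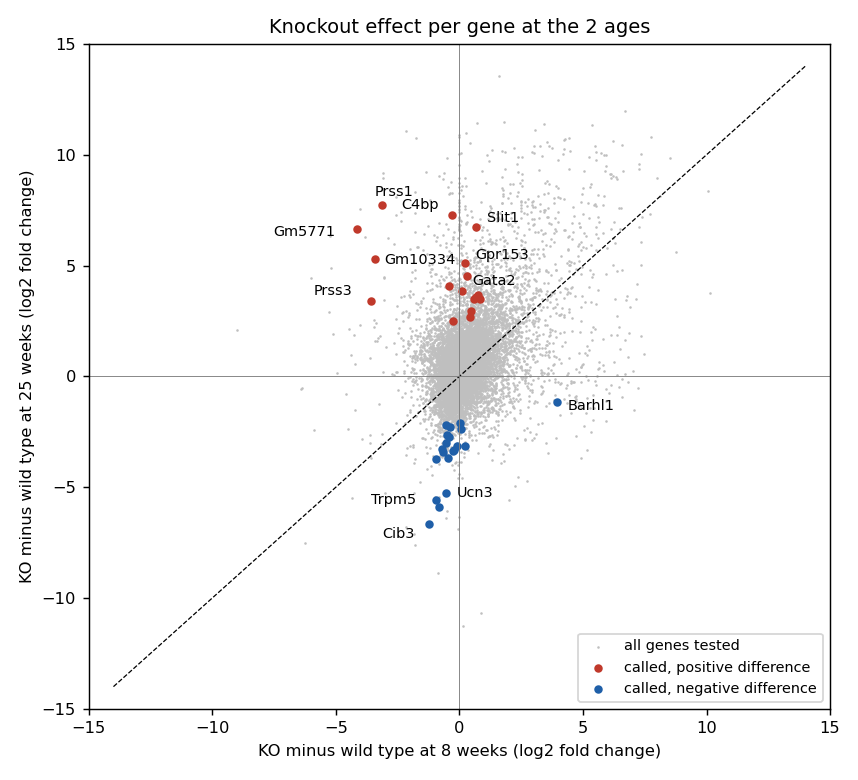
Log2 fold change of βEedKO over wild type at 8 weeks (x axis) and at 25 weeks (y axis) for the 18685 genes tested, each a point, with equal effects on the dashed line. The 17 genes called with a positive difference lie above the line and the 20 called with a negative difference below it, most of them near 0 at 8 weeks.

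With the replicate number taken as a block within each age, 2 genes were called, Prss1 (adjusted p = 0.0242) and Ucn3 (adjusted p = 0.0287). The other 35 kept their direction in that fit, with adjusted p between 0.0611 and 0.2395. Calls also depended on single libraries. Leaving out a library gave between 10 calls, without βEedKO replicate 2 at 25 weeks, and 40, without wild-type replicate 1 at 8 weeks, and 9 of the 37 genes were called in each of the 11 such fits. These were Ucn3, Prss53, Prss1, Gm5771, Gm10334, C4bp, Gata2, AW551984 and Nnat. Scaling by library size alone gave 11 calls, 72.7% of them positive, against 45.9% with TMM factors.

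Of the 20 genes with a negative difference, 3 belonged to the lists of β cell genes, Ucn3, Slc30a8 and Trpm5. Ucn3 encodes urocortin 3, a peptide released by mature β cells that acts on neighbouring δ cells. It had 324, 203 and 205 CPM in wild type and 215, 124 and 163 CPM in βEedKO at 8 weeks, and 452, 405 and 348 CPM in wild type against 11.2 and 9.69 CPM in βEedKO at 25 weeks. The 8-week groups overlapped and the 25-week βEedKO libraries were far below every other library. With all 16 libraries scaled together, heterozygous islets at 8 weeks had 401, 386 and 408 CPM. These lay above 8-week βEedKO (122 to 218 CPM) without overlap, and also above 8-week wild type (198.1 to 332.5 CPM). Against wild type the βEedKO effect was -0.54 at 8 weeks and -5.26 at 25 weeks, a difference of -4.72 ± 0.45 (log2, SE, adjusted p = 0.00466). Ucn3 lies on chromosome 13 from 3940688 to 3945349 (GRCm38, minus strand).

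Of the other 7 mature β cell genes, all had a negative difference and none was called, and 6 had an unadjusted p under 0.05. Nkx6-1, a transcription factor that keeps β cell identity, had a difference of -2.996 ± 0.70 (adjusted p = 0.163), and Mafa, a factor of β cell maturation, -3.29 ± 0.95 (adjusted p = 0.293). Pax6, a factor of all islet endocrine cells, had -1.76 ± 0.36 (adjusted p = 0.108). Over the 23 alternatives Pax6 and Nkx6-1 each passed the test under 4 and Mafa under 2, and the other 4 factors under none. The insulin gene Ins1 had 29416 to 40627 CPM in wild type and 23883 to 40555 CPM in βEedKO at 8 weeks, and the groups overlapped. At 25 weeks it had 26945 to 47851 CPM in wild type and 2109.7 and 2878 CPM in βEedKO. Its difference of -3.72 ± 0.90 did not pass (adjusted p = 0.185), nor did that of Ins2 at -3.50 ± 1.17 (adjusted p = 0.406), but both passed with DESeq2 (adjusted p = 2.04e-12 and 9.53e-12) and with the heterozygous libraries added to the control (adjusted p = 0.00901 and 0.0473). The standard errors of both were larger than those of most called genes. The other islet hormones had smaller values: the difference was 0.80 ± 0.81 for Gcg of α cells, -0.34 ± 0.53 for Sst of δ cells and 1.01 ± 0.70 for Ppy, none of them called.

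The machinery that couples glucose to secretion was represented by 26 tested genes, of which 25 had a negative difference, 2 were called (both negative) and 9 had an unadjusted p under 0.05, all negative, against 3.41% of all genes tested in that direction. Slc30a8 encodes the transporter that loads zinc into insulin granules. It had 782, 668 and 571 CPM in wild type and 751, 480 and 471 CPM in βEedKO at 8 weeks, then 873, 862 and 794 CPM in wild type and 65.5 and 95.9 CPM in βEedKO at 25 weeks. The difference was -3.14 ± 0.44 (adjusted p = 0.0217). Trpm5, a calcium-activated cation channel, had 101, 58.7 and 86.4 CPM in wild type and 48.4, 32.9 and 44.9 CPM in βEedKO at 8 weeks. It had 181, 106 and 95.2 CPM in wild type and 1.80 and 3.37 CPM in βEedKO at 25 weeks, a difference of -4.63 ± 0.53 (adjusted p = 0.00614). Here βEedKO was already below wild type in every library at 8 weeks, by 0.96 on the log2 scale without passing the test (adjusted p = 0.424). The glucose transporter Slc2a2 (-1.97 ± 0.68), the β cell glucose phosphatase G6pc2 (-2.93 ± 0.57) and the incretin receptor Glp1r (-2.31 ± 0.88) were not called. The subunits of the ATP-sensitive potassium channel had -1.37 ± 0.62 for Abcc8 and -0.24 ± 0.46 for Kcnj11.

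Other called genes serve the contacts and signals of islet cells. Gjd2 encodes connexin 36, the gap junction protein that couples β cells electrically. It had 260, 336 and 331 CPM in wild type and 253, 195 and 183 CPM in βEedKO at 8 weeks, against 274, 260 and 233 CPM in wild type and 32.6 and 30.3 CPM in βEedKO at 25 weeks. Its difference was -2.47 ± 0.32. Gad1 makes the transmitter GABA, which β cells secrete, and had -2.72 ± 0.33. The 25-week βEedKO libraries had 14.7 and 22.5 CPM of it against 79.3 to 222 CPM in the other 9. At 8 weeks Gad1 had 151, 121 and 146 CPM in wild type and 88.9, 92.1 and 79.3 CPM in βEedKO. Frzb, a secreted Wnt antagonist, had -2.79 ± 0.41 and was the called gene among 37 Wnt pathway genes tested. Fkbp1b, which binds the ryanodine receptor, had -2.57 ± 0.34, and Ppp1r1a, an inhibitor of protein phosphatase 1, had -3.07 ± 0.48. In Gjd2, Gad1, Frzb and Fkbp1b every βEedKO library was below every wild-type library at 8 weeks already. Their 8-week effects of -0.94 to -0.55 did not pass the test. In Ppp1r1a the 8-week groups overlapped.

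Prss53, which encodes a serine protease, had a flat level at 8 weeks. It had 98.1, 110 and 92.7 CPM in wild type and 96.9, 110 and 142 CPM in βEedKO, and the groups overlapped. At 25 weeks it had 117, 96.6 and 83.8 CPM in wild type and 9.81 and 12.3 CPM in βEedKO, a difference of -3.37 ± 0.33 (adjusted p = 0.00466). The remaining negative genes with the 25-week βEedKO libraries below all others were Cib3 (-5.44 ± 0.60), T2 (-5.06 ± 0.69), Tmem215 (-3.24 ± 0.49), Fam151a (-3.02 ± 0.34), Rnf182 (-2.42 ± 0.37), Zdhhc2 (-2.33 ± 0.34), Loxl2 (-2.17 ± 0.31), Ogdhl (-2.11 ± 0.34), Ociad2 (-1.92 ± 0.31) and Maob (-1.66 ± 0.27). Cib3 had 0.300 and 0.271 CPM in 25-week βEedKO (11 reads in both libraries together) against 5.95 to 46.0 CPM elsewhere. At 8 weeks it had 21.4, 20.9 and 16.5 CPM in wild type and 8.70, 5.95 and 10.6 CPM in βEedKO. That effect of -1.22 did not pass the test (adjusted p = 0.244). The 8-week βEedKO libraries were also below all 8-week wild-type libraries in Zdhhc2, Loxl2 and Maob.

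**Figure D2:**
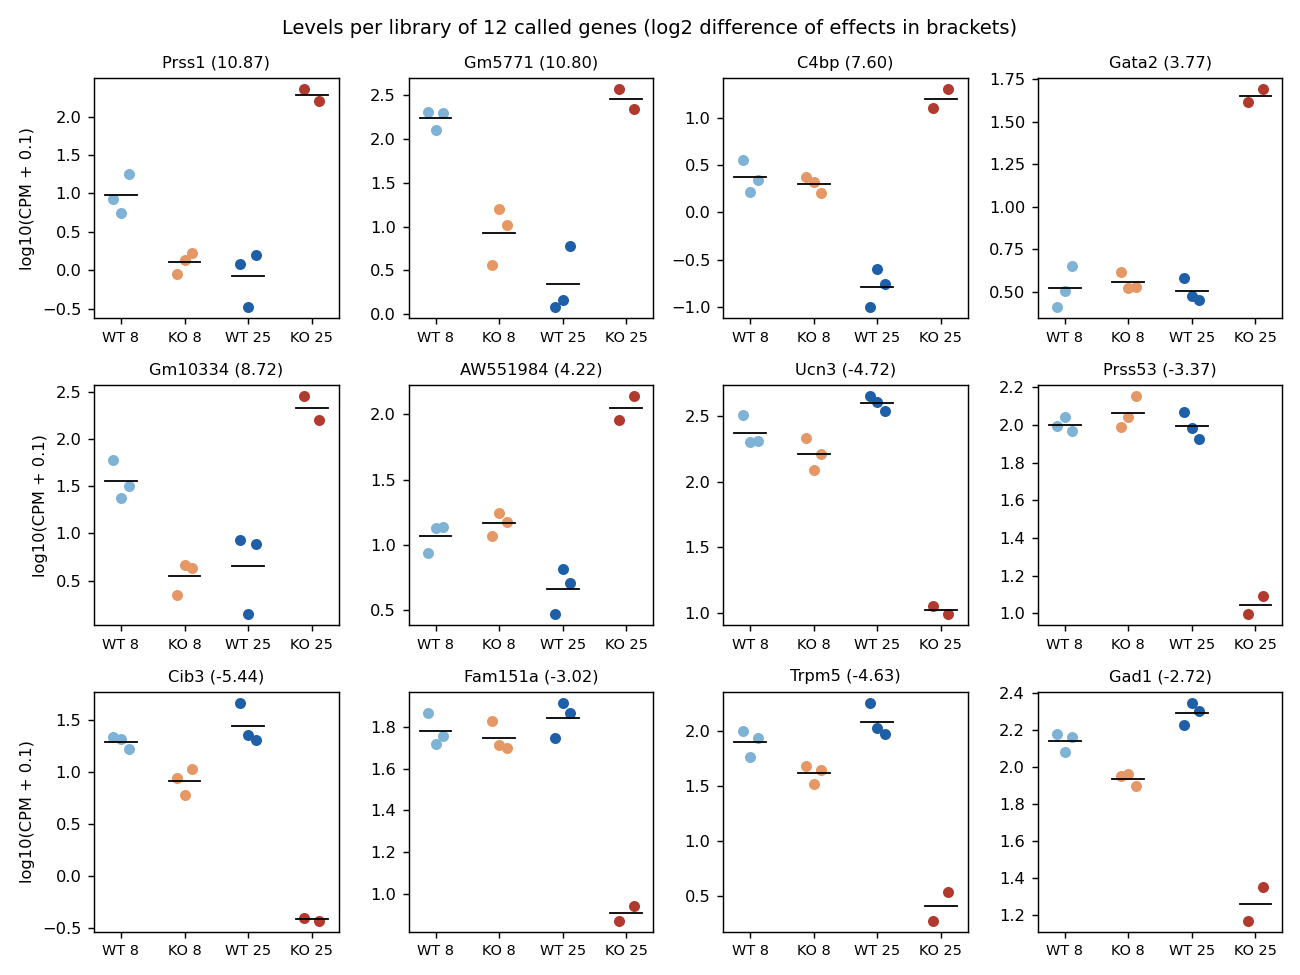
Log10 of CPM plus 0.1 in each of the 11 libraries (points) for the 6 genes with the lowest p in each direction, by genotype and age in weeks, with the mean of the log values as a line. In every panel both 25-week βEedKO libraries (dark red) lie outside the range of the other 9.

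Genes with a positive difference included a transcription factor, receptors and secreted proteins that were low in the other 3 groups. Gata2, a zinc-finger transcription factor of blood and neural progenitors, had 2.47, 3.09 and 4.39 CPM in wild type and 4.07, 3.25 and 3.27 CPM in βEedKO at 8 weeks. The 25-week values were 3.74, 2.90 and 2.72 CPM in wild type and 40.9 and 48.8 CPM in βEedKO. The groups overlapped at 8 weeks, with an effect of 0.09, and the difference was 3.77 ± 0.40 (adjusted p = 0.00579). Gpr153, an orphan G protein-coupled receptor, had 35.1 and 37.3 CPM in 25-week βEedKO and 0.440 to 2.29 CPM in the other libraries, a difference of 4.90 ± 0.56 (adjusted p = 0.00579). Nnat, the imprinted neuronatin gene, had 384 and 245 CPM in 25-week βEedKO and 24.6 to 48.3 CPM elsewhere, a difference of 2.91 ± 0.33. Slit1, a ligand of axon guidance, had 16.3 and 24.6 CPM against 0 to 1.41 CPM elsewhere. Its difference was 6.03 ± 0.97 (adjusted p = 0.0422), with 6 reads in the 3 wild-type libraries at 25 weeks together.

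The receptor tyrosine kinase gene Kit had 10.9, 6.95 and 8.56 CPM in wild type and 19.6, 14.4 and 10.1 CPM in βEedKO at 8 weeks, and 2.86, 5.34 and 6.06 CPM against 64.0 and 61.3 CPM at 25 weeks. The difference was 2.94 ± 0.47. Smaller differences were found for the matricellular protein gene Ccn3 (2.88 ± 0.45), the translation elongation factor gene Eef1a2 (2.73 ± 0.43), the protease inhibitor gene Serpine2 (2.63 ± 0.36) and the potassium channel subunit gene Dpp6 (2.27 ± 0.31). Thsd7a had 4.49 ± 0.72 and AW551984 4.22 ± 0.47. Serpine2 was higher in βEedKO at 8 weeks in every library, with 16.1 to 20.2 CPM against 8.89 to 11.5 CPM, without passing the test (adjusted p = 0.283), and reached 86.4 and 86.7 CPM at 25 weeks.

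A gene of the complement system also had a positive difference. C4bp, which encodes a subunit of the C4b-binding protein, had 3.46, 1.55 and 2.11 CPM in wild type and 2.24, 1.98 and 1.5015 CPM in βEedKO at 8 weeks. At 25 weeks wild type had 0, 0.1525 and 0.0777 CPM, 3 reads in all, and βEedKO had 12.5 and 19.8 CPM. The difference of 7.60 ± 0.78 (adjusted p = 0.00516) combined a change of -4.53 in wild type with age, which did not pass the test (adjusted p = 0.0978), and a rise of 3.07 in βEedKO (adjusted p = 0.0148). Summed levels of markers of other cell types also differed between these groups. The summed level of 24 macrophage and leukocyte markers was 891 to 1275 CPM in 25-week βEedKO, 386 to 667 CPM in 25-week wild type, 339 to 780 CPM in 8-week βEedKO and 281 to 337 CPM in 8-week wild type, and 7 of the 24 lay above all other libraries in both 25-week βEedKO libraries, against 9.57% of all genes. For 23 stromal and Schwann cell markers the sum was 740 to 1059 CPM in 25-week βEedKO, 391.9 to 662 CPM in 25-week wild type, 533 to 757 CPM in 8-week βEedKO and 367 to 501.5 CPM in 8-week wild type, so that the genotypes did not overlap at either age, and 8 of the 23 lay above all others, again against 9.57%. Every marker of both lists had reads in each group. Of the 24 macrophage and leukocyte markers, 2 passed the low-count filter only through 25-week βEedKO, as did 891 of all 18685 genes. Such genes had to stand higher there, so that they may add to the counts above all others. Among the 23 stromal and Schwann cell markers there were 0 of this kind. The counts above all others describe the level at 25 weeks and not the difference of effects. In neither list was a difference called. In each list 0 members had a positive difference at an unadjusted p under 0.05, against 4.35% of all genes. The part of these cells in the result was not tested.

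The 3 largest differences of all called genes (Prss1, Gm5771 and Gm10334) belonged to the trypsinogen cluster on chromosome 6, which encodes digestive protease precursors of the exocrine pancreas. Prss1 had 8.34, 5.47 and 17.9 CPM in wild type and 0.795, 1.27 and 1.59 CPM in βEedKO at 8 weeks. The 25-week values were 1.10, 0.229 and 1.48 CPM in wild type and 228 and 158 CPM in βEedKO. The genotypes did not overlap at either age and their order was reversed, with effects of -3.14 and 7.72 and a difference of 10.87 ± 0.91 (adjusted p = 0.00373). Gm5771 showed the same order. It had 207, 126 and 198 CPM in wild type and 3.51, 15.8 and 10.4 CPM in βEedKO at 8 weeks, and 1.10, 1.37 and 5.91 CPM in wild type and 371 and 221 CPM in βEedKO at 25 weeks. Its difference was 10.80 ± 1.05 (adjusted p = 0.00466), and it was the gene called lower in βEedKO at 8 weeks (0.00535% of all tested). Gm10334 had a difference of 8.72 ± 0.95 and Prss3 of 6.99 ± 1.01, with negative effects at 8 weeks and positive effects at 25 weeks. For Prss3 the 25-week βEedKO libraries, at 602 and 231 CPM, overlapped the 8-week wild type at 213 to 402 CPM. The 4 genes lie between 41373814 (Prss3) and 41463786 (Prss1) on chromosome 6 of GRCm38. They are paralogs of a gene family, and how the counting divided reads among them was not examined, so that their counts are uncertain.

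Heterozygous islets at 8 weeks did not share the high level of wild type in 3 of the 4 genes. With all 16 libraries scaled together, Gm5771 had 10.2, 3.06 and 10.5 CPM in heterozygous islets at 8 weeks, within the range of βEedKO (3.56 to 15.6 CPM) but for the lowest library, and 1.09 and 6.30 CPM at 25 weeks. Gm10334 at 1.95 to 6.76 CPM and Prss3 at 20.3 to 63.6 CPM were also below every 8-week wild-type library. Prss1 was uneven, at 16.6, 0.843 and 0.826 CPM at 8 weeks and 9.70 and 0.7001 CPM at 25 weeks, at the level of wild type in a single 8-week library. With the heterozygous libraries as control the differences were 7.58 for Prss1 (adjusted p = 0.116), 6.05 for Gm5771 (0.0564) and 5.23 for Prss3 (0.0795), none of them called, and Gm10334 was called at 7.21 (adjusted p = 0.0176). The acinar markers as a whole had another pattern. The summed level of 29 acinar cell markers, all with reads in every group, was 590900 CPM in βEedKO replicate 2 and 18330 CPM in βEedKO replicate 3 at 25 weeks, the highest and the lowest of the 11 libraries, while Prss1 was at 228 and 158 CPM in these. In 25-week wild type the sum ranged from 44440 to 315400 CPM, with Prss1 between 0.229 and 1.48 CPM. At 8 weeks the sum ranged from 42700 to 300500 CPM in wild type and from 36520 to 62040 CPM in βEedKO. All 29 markers had a positive difference, with a median of 2.57, but 3 were called, which were Prss1, Gm5771 and Prss3. Without βEedKO replicate 2 at 25 weeks that median was -1.61, while the 4 called genes of the cluster kept a positive difference in every alternative.

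**Figure D3:**
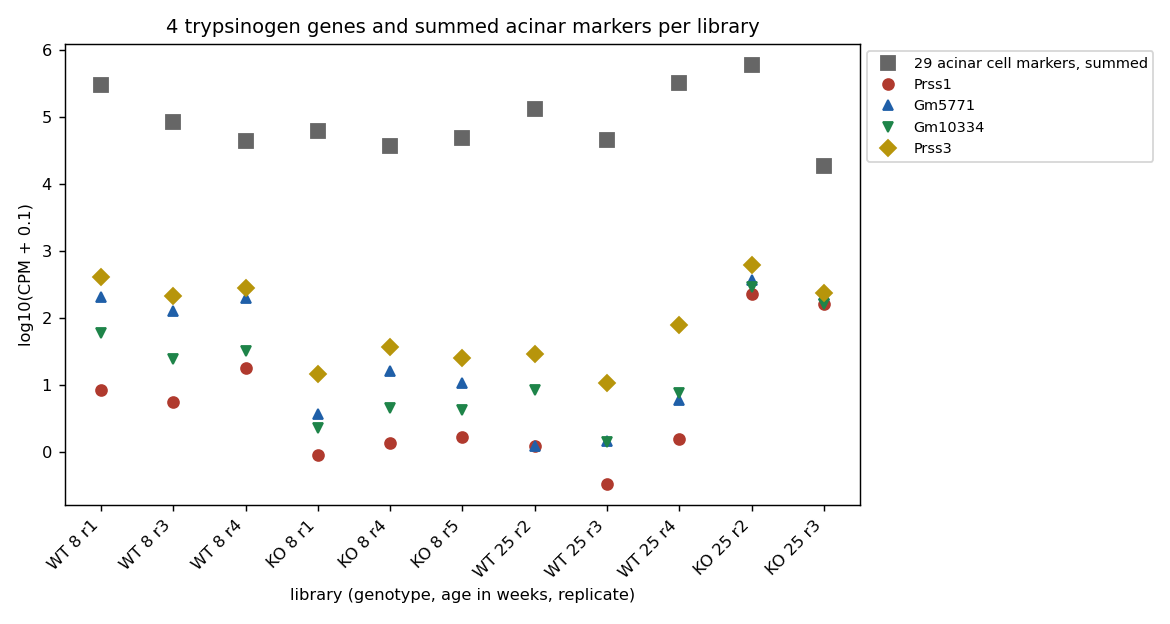
Log10 of CPM plus 0.1 in each of the 11 libraries for the 4 called trypsinogen genes and for the sum of 29 acinar cell markers (squares). The trypsinogens are higher in 8-week wild type and 25-week βEedKO than in the other groups, whereas the sum is at its highest in βEedKO replicate 2 and at its lowest in βEedKO replicate 3 at 25 weeks.

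Genes with an early effect that was smaller later were rarer among the calls. Barhl1, a homeobox gene of the developing nervous system, had 0.741, 0.178 and 0.704 CPM in wild type and 12.4, 6.10 and 6.80 CPM in βEedKO at 8 weeks. At 25 weeks wild type had 7.04, 9.07 and 8.24 CPM and βEedKO had 2.70 and 4.49 CPM, so that the order of the genotypes was reversed. The difference was -5.12 ± 0.77 (adjusted p = 0.0348). The change with age was 3.89 in wild type (adjusted p = 0.0978) and -1.23 in βEedKO (adjusted p = 0.339). Of the 81 genes called at 8 weeks, 41 had a difference with the sign of the 8-week effect, so that the fitted effect was larger at 25 weeks, and 40 had the opposite sign. The 81 were chosen for their 8-week effect, which the difference subtracts. That choice favours the opposite sign, so that the split is no result by itself. After Barhl1 and Gm5771, the lowest p among the 40 belonged to Reln, Cplx3 and Crhr1, none of them called. Reln, which encodes a secreted guidance protein of the brain, had 3.09 to 5.69 CPM in wild type and 18.5 to 29.1 CPM in βEedKO at 8 weeks, and 8.32 to 10.3 CPM against 10.8 and 11.97 CPM at 25 weeks, a difference of -2.21 ± 0.42 (adjusted p = 0.0871). Cplx3, a complexin of synapses, had -3.30 ± 0.65 (adjusted p = 0.0959), and Crhr1, a receptor for corticotropin-releasing hormone, had -3.29 ± 0.67 (adjusted p = 0.107).

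Homeobox genes of the Hox clusters set position along the embryo and are classic Polycomb targets. Of 39 listed, 35 were tested, and 31 of these passed the low-count filter only through the 25-week βEedKO libraries, so that they had to stand higher there and their direction is no result. The other 4 had positive differences with a median of 2.59. None of the 35 was called. Hoxa9 had 0 to 0.217 CPM in the 9 other libraries and 16.5 and 19.7 CPM in 25-week βEedKO, and its difference of 9.18 ± 1.60 missed the threshold (adjusted p = 0.0624). Hoxd8 was called at 8 weeks already, with 2.90 to 5.47 CPM in βEedKO against 0.325 to 0.713 CPM in wild type, and had a difference of 2.59 ± 0.57. Of 104 other developmental transcription factors tested, 51 likewise passed only through 25-week βEedKO. Among the other 53, 43 had a positive difference and the median was 1.5, against a median of 0.00 and 50.0% positive over the 17794 genes that passed the filter without those libraries. Of the 104, 1 was called, Gata2. Tbx15, a T-box factor of the skeleton, had 12.2 and 14.5 CPM in 25-week βEedKO against 0.371 to 1.68 CPM elsewhere, a difference of 4.03 ± 0.70 (adjusted p = 0.0624).

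Genes that β cells normally keep low, the disallowed genes, had a positive difference in all 22 tested, with a median of 1.00, and 0 were called. Hk1, the high-affinity hexokinase that β cells avoid, had 8.93 to 15.5 CPM at 8 weeks, 5.72 to 10.3 CPM in wild type at 25 weeks and 41.0 and 49.8 CPM in βEedKO at 25 weeks, a difference of 2.49 ± 0.44 (adjusted p = 0.0666). The granule protein Chgb (chromogranin B) had 7770.3 and 11445 CPM in 25-week βEedKO against 879 to 1918 CPM elsewhere, at 2.91 ± 0.51 (adjusted p = 0.0628). Among 12 granin and granule genes the median was -0.02, with 6 positive. In the next lists the members that passed the filter only through 25-week βEedKO are left out. Of 16 dedifferentiation and progenitor markers 14 were positive, with a median of 1.58. In the Wnt list 26 of 34 were positive (median 0.88), in the BMP and TGF beta list 22 of 27 (0.69), in the hedgehog list 8 of 11 (0.54) and among regulators of α and δ cells 9 of 11 (1.10). Neurotransmitter genes had a median of 0.97 over 15, with Gad1 called negative. Duct and epithelial markers had 1.35 over 17 and the Reg family 4.93 over 7, the latter 1.11 without βEedKO replicate 2 at 25 weeks. Cell cycle genes had 0.27 over 33, with 9 positive at an unadjusted p under 0.05 (4.35% of all genes), and cyclin-dependent kinase inhibitors 0.46 over 8.

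The mature β cell list had the lowest median, at -1.67 over 8. Insulin, amylin and prohormone processing genes had -0.63 over 9 and glucose sensing genes -0.76. Immediate-early genes, which respond to stimulation within minutes, had -1.57 over 21 with 20 negative and none called. These were uneven between libraries of a group. Fosb had 199.9, 4245 and 3940.0 CPM in wild type at 25 weeks and 1180.1, 63.4 and 85.8 CPM at 8 weeks, and the list's median was -0.20 with heterozygous libraries as control. Medians near 0 were found for respiratory chain subunits (-0.10 over 29), the unfolded protein response (-0.14 over 26), glucose-responsive and glycolytic genes (0.10 over 30), PRC2 subunits (-0.03 over 12), endothelial markers (-0.04 over 16), stromal and Schwann cell markers (0.04 over 23), macrophage and leukocyte markers (0.25 over 22) and interferon-induced genes (-0.07 over 25). Other islet hormones had 0.80 over 5. Each of the medians called near 0 here took both signs over the alternatives.

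**Figure D4:**
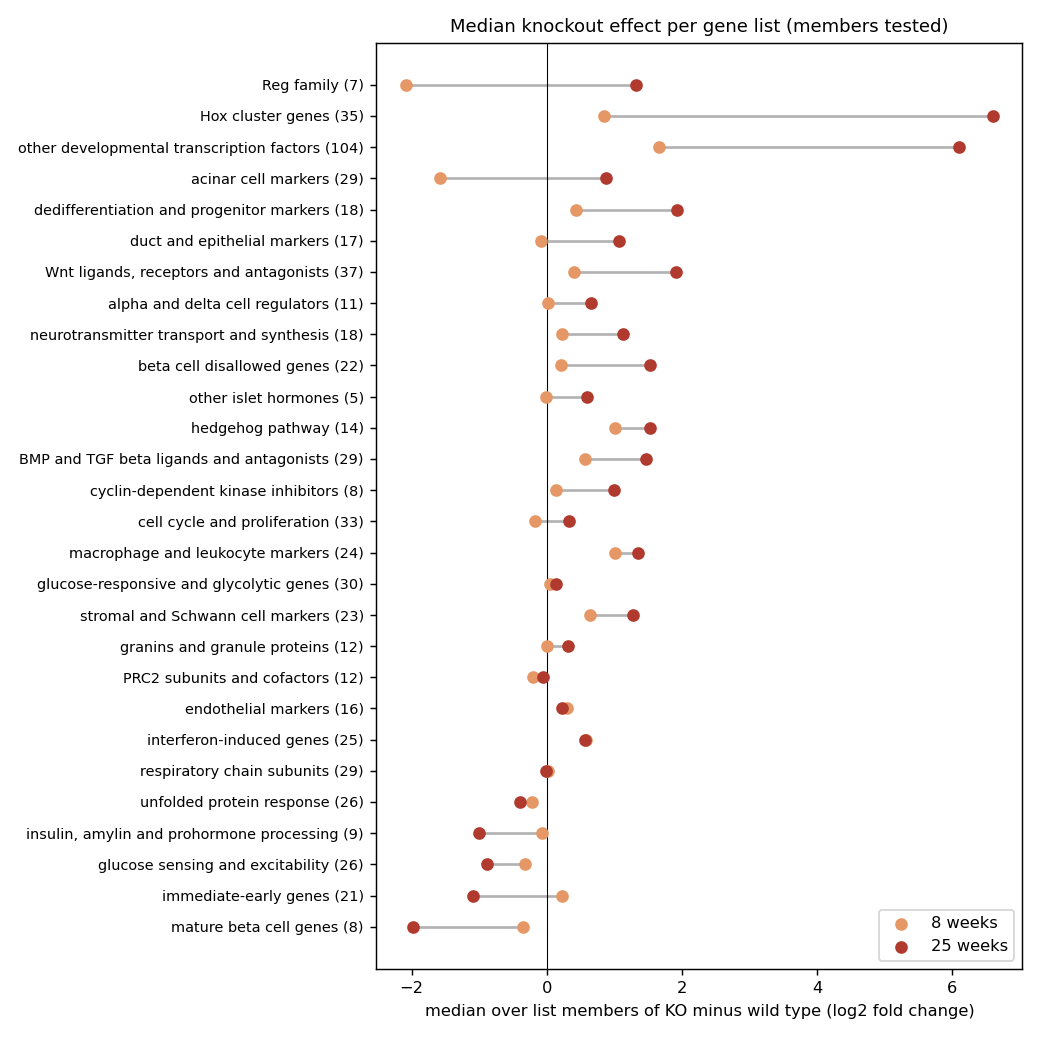
Median log2 fold change of βEedKO over wild type over the tested members of each of 28 gene lists, at 8 weeks (orange) and at 25 weeks (dark red), sorted by the median difference, with the number of members in brackets. The mature β cell median moved from -0.36 to -1.98, and the high 25-week median of the Hox list (6.604) holds 31 genes of 35 that passed the filter only through 25-week βEedKO. That of the other developmental transcription factors (6.098) holds 51 such genes of 104. The Wnt, hedgehog and neurotransmitter lists hold 3 each, and the BMP and TGF beta, dedifferentiation and macrophage lists 2 each.

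Genes without reads in wild type could not be compared in this way. A difference of fold changes has no finite value when wild type has 0 reads at an age. In 118 tested genes wild type had 0 reads at both ages, with interaction p of 0.9994 or more. They passed the low-count filter through βEedKO libraries alone, so that a higher level in βEedKO follows from how they were chosen. Six3, a homeobox gene of the forebrain and eye, had 1.03, 0.712 and 0.707 CPM in βEedKO at 8 weeks and 34.9 and 29.1 CPM at 25 weeks. It rose with age in βEedKO by 5.27 ± 0.40 (adjusted p = 0.00400). Slc32a1, the vesicular transporter of GABA and glycine, had 0.0935, 0.0508 and 0.0883 CPM (4 reads in all) and then 23.6 and 19.3 CPM, a rise of 7.99 ± 0.54 (adjusted p = 0.00335). Zic2 and Prss28 had 0 reads in all 9 other libraries and 12.4 and 15.7 CPM, and 16.0 and 13.7 CPM, in 25-week βEedKO. When log2 CPM with a prior count of 2 was tested by limma-trend, 49 of the 118 were called, among them Six3, Slc32a1, Zic2 and Prss28, and 199 genes in all. Wild type had 0 reads at 8 weeks alone in 109 further tested genes and at 25 weeks alone in 173. The median fitted differences were -3.85 and 5.67, and 0 of either kind were called. For the knockout effect at 25 weeks, 15 and 48 of them were called. The 37 calls are thus drawn from genes with reads in wild type at both ages. Of the 35 Hox genes, 9 had 0 reads in wild type at both ages and were outside the reach of the test.

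The chromatin state of each start site in wild-type islets was read from the segmentation, which did not use these libraries' knockout effects. States A, B and C were grouped here as active start sites and K, L and M as bivalent sites, which carry both an active and a Polycomb mark. States N, O and P were grouped as Polycomb-repressed sites. The study's text describes A as active, L and M as bivalent, and N and O as Polycomb states. It gives no such description of B, C, K or P. Of the 17 positive genes, 10 (58.8%) started in a bivalent state, 4 (23.5%) in a Polycomb state and 0 in an active start site state. Of the 4, 3 were the neighbouring trypsinogen genes Prss1, Gm5771 and Gm10334 (all in state P), and the other was Dpp6 (state N). Over the 17948 tested genes with a state these shares were 21.5%, 9.19% and 55.4%. Of the 19 negative genes with a state, 13 (68.4%) started in an active start site state, 3 (15.8%) in a bivalent and 2 (10.5%) in a Polycomb state. State A alone held 26.3% of the 19 negative genes, against 36.4% of all tested genes with a state. State B held 31.6% against 16.8%, and state C 10.5% against 2.29%. The negative genes outside states A, B and C were Trpm5 (state K), Rnf182 (L), Barhl1 (M), Gad1 and T2 (O), and Ociad2 (D). States were read at the Gencode start. For Gad1, Ociad2 and the positive gene Serpine2 the nearest RefSeq start was elsewhere (9057, -2081 and -2515 bases, RefSeq minus Gencode position). Which start these islets use was not examined. Of 902 tested genes in state M, 226 passed the filter only through 25-week βEedKO. Over the genes that passed without these libraries, the median difference was -0.0964 in state A (6515 genes) and 0.94 in state M (676 genes), and 79.6% of the genes of state M were positive. In state M 14.5% of these genes had a positive difference at an unadjusted p under 0.05, and in state A 0.798%. The states are from a single segmentation of whole wild-type islets. The level of expression differs between states and its part in these shares was not tested.

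**Figure D5:**
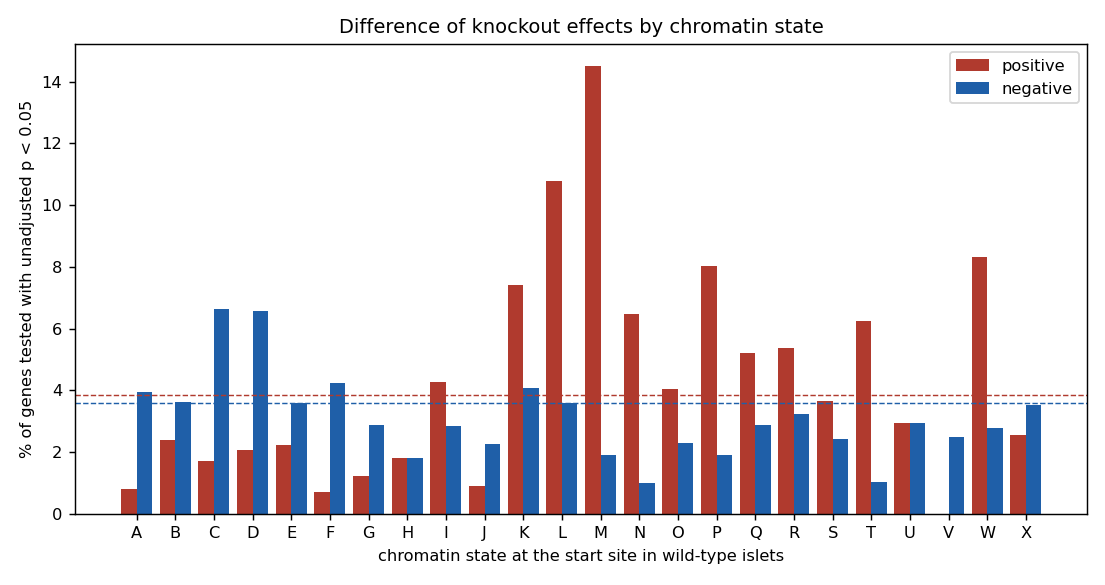
Percent of the genes of each chromatin state (A to X) that passed the low-count filter without the 25-week βEedKO libraries with a positive (red) or negative (blue) difference of effects at an unadjusted p under 0.05, with the shares over all 17794 such genes as dashed lines (3.84% and 3.58%). State M has the highest positive share and states A, B and C have more negative than positive genes.

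The 250 bases before the start site of 4 called genes show how different these promoters are. They are from RefSeq (GRCm38.p6), read 5′ to 3′ on the gene's strand, with CG dinucleotides in capitals. Gata2 (state M, chr6:88193641-88193890, plus strand) had a positive difference. Ucn3 (state B, chr13:3945350-3945599, minus strand), Prss53 (state A, chr7:127890971-127891220, minus strand) and Gjd2 (state A, chr2:114013620-114013869, minus strand) had negative differences.
Gata2: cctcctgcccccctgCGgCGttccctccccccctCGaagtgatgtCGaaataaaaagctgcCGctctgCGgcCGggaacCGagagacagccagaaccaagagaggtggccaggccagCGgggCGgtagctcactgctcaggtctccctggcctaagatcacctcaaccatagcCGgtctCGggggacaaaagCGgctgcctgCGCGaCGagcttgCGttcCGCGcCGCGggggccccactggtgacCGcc
Ucn3: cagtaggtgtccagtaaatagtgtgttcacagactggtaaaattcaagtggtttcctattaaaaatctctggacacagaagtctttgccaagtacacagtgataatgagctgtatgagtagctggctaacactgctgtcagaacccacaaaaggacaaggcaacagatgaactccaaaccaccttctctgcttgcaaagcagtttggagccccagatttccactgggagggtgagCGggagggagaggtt
Prss53: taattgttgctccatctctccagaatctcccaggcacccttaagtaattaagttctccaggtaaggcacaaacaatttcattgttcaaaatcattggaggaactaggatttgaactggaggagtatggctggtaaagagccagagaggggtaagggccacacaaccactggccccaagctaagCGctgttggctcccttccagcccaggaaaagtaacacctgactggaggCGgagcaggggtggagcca
Gjd2: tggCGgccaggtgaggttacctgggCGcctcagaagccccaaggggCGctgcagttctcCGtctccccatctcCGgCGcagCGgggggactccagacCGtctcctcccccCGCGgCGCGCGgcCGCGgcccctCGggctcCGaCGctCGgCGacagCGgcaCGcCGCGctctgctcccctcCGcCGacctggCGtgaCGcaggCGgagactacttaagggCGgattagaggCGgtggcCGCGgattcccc

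Gata2 has 22 CG dinucleotides in this stretch, Ucn3 has 1, Prss53 has 2 and Gjd2 has 33. Over windows from 250 bases before to 50 bases after the start, the 14 positive and the 14 negative genes with a RefSeq promoter both had a median of 9, against 19 over 12883 tested genes. The share of windows with 15 or more was 42.9% (6 of 14) and 35.7% (5 of 14), against 63.6%. Each of the neighbouring trypsinogen genes Prss1, Gm5771, Gm10334 and Prss3 had 0, and the other positive genes had 3 to 41. This cluster lowers both the median and the share of the positive genes. The windows of Gad1, Ociad2 and Serpine2 lie at RefSeq starts away from the start where their state was read. The capitals mark letters only, and no binding or methylation was measured at them here.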

How the data were processed

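For each bulk islet library the deposited values are unnormalised gene counts. The authors aligned reads to GRCm38 (TopHat2 2.0.13) and counted them over Gencode M9 gene models (Subread 1.5.0-p1). Use of strand is not given in the sources used here. They also deposited chromatin states of wild-type islets as EpicSeg letters in bins of 200 bp. No count column was left unused (0), and columns of other assays were not analysed here. Of 47937 identifiers, 47224 were matched to names and positions from a later Gencode release on the same build, and start sites were taken from it.

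Differences were tested in edgeR 4.0.16 (R 4.3.3). The 11 wild-type and βEedKO libraries were fitted as 4 groups with TMM factors, filterByExpr by group and the quasi-likelihood test, and the contrast of the effects at 25 and 8 weeks was tested over 18685 genes with Benjamini-Hochberg adjustment (called at 0.05). The common biological coefficient of variation was 0.456. Standard errors (SE) are the absolute log2 value over the square root of F. Library totals of 4645393 to 19078305 reads set the precision, and low counts carry counting error as well. Alternatives changed the scaling, filter, test (DESeq2 1.42.0, limma 3.58.1 on log2 CPM), control, block and libraries. The members and lists were chosen with earlier results of these data known. Genes are named if called, if core β cell or hormone genes, if among the 2 lowest p of a list, or if among the 5 lowest p of 8-week calls with the opposite sign, and others were chosen after their values were seen. A called gene is counted but not reported here by name.

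Whether same-numbered libraries share a litter or day is not stated. Their deviations from group means correlated at 0.460 and 0.166 (8 weeks, replicates 1 and 4) and 0.177 and 0.257 (25 weeks, replicates 2 and 3), so the blocked fit is given where it changed a call. Libraries with different numbers correlated between -0.531 and 0.452. In simulated counts, 22.0% of 100 genes changed 4-fold and 85.0% of 100 changed 16-fold in the contrast were called, among 17966 genes tested, with 4 false calls. The changed genes were drawn from those above a floor of mean level. All groups had the same mean for a gene, apart from the change set in 25-week βEedKO. Other differences between the real groups were left out, so that these shares are not the power of the actual test.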

Additional observations from a re-analysis of the deposited data

Results flagged for a closer look

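The knockout effect differed between 25 and 8 weeks, by the test of the difference itself, in 37 genes, of which 36 are listed. The log2 difference was positive in Prss1 (10.87), Gm5771 (10.80), Gm10334 (8.72), C4bp (7.60), Prss3 (6.99), Slit1 (6.03), Gpr153 (4.90), Thsd7a (4.49), AW551984 (4.22), Gata2 (3.77), Kit (2.94), Nnat (2.91), Ccn3 (2.88), Eef1a2 (2.73), Serpine2 (2.63) and Dpp6 (2.27). It was negative in Cib3 (-5.44), Barhl1 (-5.12), T2 (-5.06), Ucn3 (-4.72), Trpm5 (-4.63), Prss53 (-3.37), Tmem215 (-3.24), Slc30a8 (-3.14), Ppp1r1a (-3.07), Fam151a (-3.02), Frzb (-2.79), Gad1 (-2.72), Fkbp1b (-2.57), Gjd2 (-2.47), Rnf182 (-2.42), Zdhhc2 (-2.33), Loxl2 (-2.17), Ogdhl (-2.11), Ociad2 (-1.92) and Maob (-1.66). No test for an outlying library was made within groups of 2 or 3 libraries. Fits that leave out single libraries are given with the alternatives.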

How the results depend on the processing

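All 37 genes kept their direction in every alternative. The number called depended on the setting, against 37 (17 positive, 20 negative): 11 (8 and 3) with library size alone, 73 (52 and 21) with no low-count filter, 340 (166 and 174) with DESeq2, 199 (150 and 49) with limma-trend, 2 (1 and 1) with the replicate block, 90 (41 and 49) with all 16 libraries in 6 groups, 204 (96 and 108) when heterozygous libraries joined the wild type, and 53 (21 and 32) with heterozygous libraries as control, 27 of them shared. It was 37 with RLE size factors. The next alternatives were chosen after seeing the data. The replicate block with library size alone gave 241 (160 and 81), 33 of them shared. The 8-week libraries fell apart by the summed level of 25 interferon-induced genes, 226 and 189 CPM in replicates 1 and 5762 to 9531 CPM in the other 4. With the low pair alone at 8 weeks edgeR called 0 genes (0 and 0), with 1672 at an unadjusted p under 0.05, and with the high 4 alone 59 (28 and 31), 33 of them shared. Leaving out single libraries gave 10 to 40 calls, 7 to 20 positive and 3 to 20 negative, with the lone βEedKO library at 25 weeks assumed to vary like the other groups, and 14 calls without βEedKO replicate 3 at 25 weeks. The cause of these changes was not tested.

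Directions that reversed belonged to genes that were not called: Eed (-0.02033 with block and library size alone, and -0.01913 with the low 8-week pair), Gcg (-0.37), Sst (0.23), Egr4 (0.85), Oas3 (-3.36) and Cd14 (-0.15) with heterozygous control, Gbp3 (0.09103 with the replicate block, 0.98 with the low pair) and Sdha (0.25 with the pooled and 0.67 with the heterozygous control). In the blocked fit 3 libraries without a partner of the same number (8-week wild type 3, 8-week βEedKO 5, 25-week wild type 4) added nothing to the differences. Genes with 0 reads in wild type gave no call in the edgeR contrast, whereas limma-trend called 49 and DESeq2 5 of the 118.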
